A study of Homo sapiens with 19 samples.

Results

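The transcripts described here are those of 44 genes that act at the G1/S boundary and at the DNA replication fork, out of 25579 genes measured on arrays of HepG2 cells, an established human liver cancer line. The 44 were taken by name from textbook roles in origin licensing, fork assembly, nucleotide supply, lagging strand synthesis, histone supply and the E2F and cyclin E step. The list was chosen with earlier results of these data known. All 44 were measured.

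A cell prepares to copy its genome by loading the ring-shaped MCM helicase onto origins in G1 with ORC, CDC6 and CDT1, and then switches the helicase on by adding CDC45 and the GINS complex. Transcription factors of the E2F family, released from the retinoblastoma protein when cyclin D and cyclin E kinases become active, drive many of these genes together, so their transcripts are often read as a mark of entry into S phase. YAP and TAZ are coactivators at the end of the Hippo pathway that bind TEAD factors on DNA and are known for promoting growth of liver cells.

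The cells received siRNAs against YAP1, the gene of YAP, or against WWTR1, the gene of TAZ, and total RNA was taken 24 h later. The siRNAs siYAP1 (3 arrays) and siYAP2 (3 arrays) both target YAP1. The siRNAs siTAZ2 (3 arrays) and siTAZ3 (2 arrays) both target WWTR1, and each of these 4 was given at 20 nM. A pair of siRNAs was given at 40 nM in total as siTAZ2 with siYAP1 (3 arrays) and as siTAZ3 with siYAP2 (2 arrays). The control was a nonsense siRNA (3 arrays), for which the labels state 40 nM or 20 nM, depending on the field read. All 7 groups had the same line, serum-containing medium and transfection reagent. The labels do not say that arrays of a group came from separate cultures, so the p-values measure the spread between these arrays, which may be technical.

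The values are log2 signals after RMA, a procedure that gives every array the same distribution, so that the median of every array was 4.83 and the range 3.17 to 13.78. A shift shared by all genes would therefore not be visible. Each gene was tested with limma on all 19 arrays, with p-values adjusted over all 25579 genes and a threshold of 0.05, and a gene is said to have risen or fallen only where it passed. The mean levels of the 44 genes lay between 6.80 and 11.87, all above the array median. Of all genes, 68.4% had a lower mean than the lowest of the 44. The shares of all genes given below include these dimmer genes, so they are not matched to the 44 in level. YAP1 transcript was at 15.1% of control with siYAP1, 15.3% with siYAP2, 20.2% with siTAZ2 and siYAP1 and 23.4% with siTAZ3 and siYAP2. WWTR1 transcript was at 16.8% of control with siTAZ2, 11.9% with siTAZ3, 19.7% with siTAZ2 and siYAP1 and 10.5% with siTAZ3 and siYAP2. The transcript not targeted was lower too. YAP1 was at 84.7% of control with siTAZ2, which did not pass, and 75.4% with siTAZ3 (limma adjusted p = 0.0469). WWTR1 was at 76.5% with siYAP1 and 79.7% with siYAP2, and neither passed. In each of these comparisons every siRNA array was below every control array. All 10 hepatocyte markers measured were above the array median, from FGB at 10.14 to APOB at 13.46. Of 9 markers of fibroblasts, endothelium and blood cells, LYZ (13.14) and COL1A1 (6.64) were above it, and PTPRC (3.44) was lowest.

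Several limits touch the results. The arrays of the control and of both YAP siRNAs had already been part of an earlier series, and those with a TAZ siRNA had not, so for any group with a TAZ siRNA against control the siRNA and the deposit cannot be told apart. Comparisons of siYAP2 with siYAP1, of siTAZ3 with siTAZ2, and of a combined group with its TAZ siRNA alone lie within a deposit. A combined group had 40 nM of siRNA in total and its TAZ siRNA alone 20 nM. The added YAP siRNA and the higher total dose therefore cannot be told apart there. The same holds for the tests of whether a YAP siRNA acted differently on top of a TAZ siRNA. In addition, the array labelled siTAZ2 replicate 3 stood apart, with a median correlation of 0.9866 with the other arrays where every other array had at least 0.9927. It was the highest of the 19 arrays for 18 of the 44 genes and the lowest for 9, and the shares of all genes for these counts are not given here. Its median distance from the other siTAZ2 arrays was 0.338 on the log2 scale for the 44 genes, against 0.150 for all genes. Because all groups share one estimate of spread, this array enters the errors of every comparison. The standard error of the siYAP2 difference from control was larger with it than without it in 41 of the 44 genes (76.9% of all genes). That of the siTAZ2 difference, where leaving it out also leaves fewer arrays, was larger in 30 of the 44 (29.9% of all genes). For these reasons the counts without it are given beside those with it.

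The start regions of 39 of the 44 genes were in the RefSeq promoter table (GRCh38.p14), each as 250 bases before and 50 after the listed start. The letters TTCCCGC and TTCGCGC, and also TTGCCGC and TTGGCGC, which resemble E2F sites, were searched on both strands, overlaps with other motifs allowed. They were found in 74.4% of these 39 windows and in 13.1% of the 27305 gene windows in the table. The CCAAT box letters were found in 56.4% of the 39 and 35.7% of all windows, and the TEAD-type letters GGAATG in 12.8% of the 39 and 14.0% of all. Such a match is a description of the letters and not a bound site. The 150 bases before the start of 5 genes that fell with siYAP2 follow, chosen because their promoters differ in these letters, and are written 5′ to 3′ on the gene's strand with E2F-type and CCAAT letters, on either strand, in capitals. Where a gene had several starts, as RRM2 and CDC45 did, the first listed was used.
E2F1, chr20:33686386-33686535, minus strand: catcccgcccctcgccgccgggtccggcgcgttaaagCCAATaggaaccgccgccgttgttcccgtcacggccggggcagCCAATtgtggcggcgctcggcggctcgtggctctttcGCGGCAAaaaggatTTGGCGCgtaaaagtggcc
POLA1, chrX:24693768-24693917, plus strand: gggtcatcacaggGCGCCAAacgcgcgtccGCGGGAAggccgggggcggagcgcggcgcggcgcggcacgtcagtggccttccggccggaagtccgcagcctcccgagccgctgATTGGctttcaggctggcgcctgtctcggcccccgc
RRM2, chr2:10122589-10122738, plus strand: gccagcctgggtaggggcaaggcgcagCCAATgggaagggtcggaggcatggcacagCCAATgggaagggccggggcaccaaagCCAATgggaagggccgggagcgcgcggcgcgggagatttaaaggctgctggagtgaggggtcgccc
CDC45, chr22:19479770-19479919, plus strand: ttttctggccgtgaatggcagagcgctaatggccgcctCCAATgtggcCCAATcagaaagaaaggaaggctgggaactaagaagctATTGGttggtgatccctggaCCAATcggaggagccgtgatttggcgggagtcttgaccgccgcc
SLBP, chr4:1712320-1712469, minus strand: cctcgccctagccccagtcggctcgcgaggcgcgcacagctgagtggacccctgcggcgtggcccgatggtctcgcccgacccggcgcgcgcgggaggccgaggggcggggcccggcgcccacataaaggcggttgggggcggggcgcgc
The E2F1 and POLA1 stretches each hold 2 E2F-type matches. The RRM2 and CDC45 stretches hold 3 and 4 CCAAT boxes and no E2F-type match from this list, and the SLBP stretch holds neither. Only exact letters were matched, so forms that differ by a letter, such as ttggcgg in the CDC45 stretch, were not counted. Of the 7 genes with a promoter among the 8 that fell with siYAP2, 4 held an E2F-type match in the full window, 5 a CCAAT box and 1 the TEAD-type letters.

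By the limma test, siYAP2 gave the most calls among the replication genes over all arrays, although in the fit without the array labelled siTAZ2 replicate 3 siTAZ3 with siYAP2 gave as many, 10 each. With siYAP2 8 of the 44 fell, a share of 18.2%, and none rose, where 2.19% of all genes fell and 1.53% rose. With siYAP1 none passed, where 0.485% of all genes fell and 0.395% rose. Against control, siTAZ2 gave 3 lower and 1 higher (1.04% and 1.33% of all genes), siTAZ3 gave 1 lower and none higher (0.645% and 0.512%), siTAZ2 with siYAP1 gave 2 lower and 1 higher (1.32% and 1.12%) and siTAZ3 with siYAP2 gave 5 lower and none higher (1.57% and 1.09%). Over all these groups and the comparisons between them, 15 of the 44 genes passed at least once and 29 never did. The share of all genes that passed at least once is not given here, so this count cannot be called high or low.

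**Figure D1:**
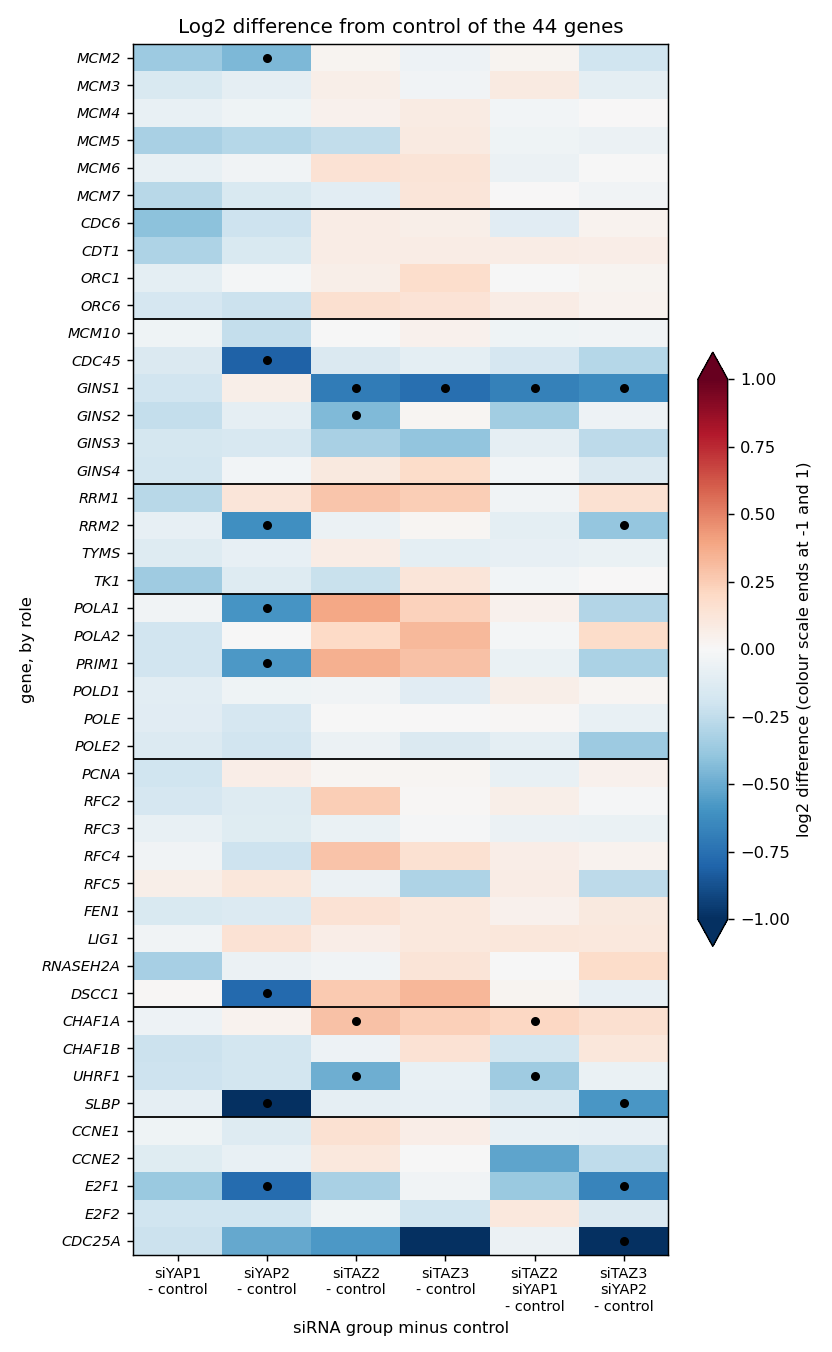
Log2 difference of each of the 44 genes (vertical, ordered by role) in each comparison (horizontal), coloured from lower to higher with the scale ending at 1 on either side and a black dot where the limma test passed. The dots gather in the column of siYAP2 against control, where 8 genes carry one, and the column of siYAP1 against control has none.

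SLBP and CDC45 had the largest and second largest declines with siYAP2, each the one gene of its role to fall (1 of 4 genes of histone and chromatin supply and 1 of 6 of helicase activation). SLBP, which binds the stem-loop at the end of histone mRNAs and is needed to make histones in S phase, read 8.92, 8.79 and 8.76 with siYAP2, against 9.95, 9.78 and 9.77 in control arrays. CDC45, the helicase cofactor, read 7.51, 7.39 and 7.41 with siYAP2, against 8.33, 8.23 and 8.18 in control arrays. The groups did not overlap for either gene. SLBP was lower by a log2 difference of -1.01 (SE 0.088, limma adjusted p = 2.91e-06), which is 2.02-fold. The difference for CDC45 was -0.81 (SE 0.070, limma adjusted p = 2.58e-06), or 1.76-fold. In the lysate of a whole culture, fewer cells in S phase and less transcript per cell cannot be told apart.

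Nucleotide supply changed in 1 of 4 genes. RRM2, the small subunit of ribonucleotide reductase, which makes deoxynucleotides in S phase, read 11.44, 11.41 and 11.43 with siYAP2, against 12.04, 12.04 and 12.04 in control arrays. The 3 siYAP2 arrays lay close together and below every control array. The log2 difference was -0.61 (SE 0.057, limma adjusted p = 5.59e-06). RRM1, the large subunit of the same enzyme, had a difference of 0.12, TK1, thymidine kinase, -0.13 and TYMS, thymidylate synthase, -0.08, and none of these passed.

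Of the 6 polymerase and primase genes, 2 fell. POLA1, the catalytic subunit of polymerase alpha, read 8.09, 8.02 and 8.14 with siYAP2, against 8.72, 8.68 and 8.63 in control arrays. PRIM1, the primase subunit that lays the RNA primer and works in one complex with POLA1, read 8.66, 8.69 and 8.67 with siYAP2, against 9.14, 9.32 and 9.29 in control arrays. Every siYAP2 array was below every control array for both. The log2 differences were -0.59 for POLA1 (SE 0.108, limma adjusted p = 0.00379) and -0.58 for PRIM1 (SE 0.109, limma adjusted p = 0.00518). POLA2, the accessory subunit of that complex, had a difference of -0.01. The replicative polymerase genes POLD1 (-0.04), POLE (-0.17) and POLE2 (-0.19) did not pass.

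E2F1, the transcription factor whose targets include many genes of this list, read 6.99, 7.06 and 6.93 with siYAP2, against 7.83, 7.70 and 7.77 in control arrays. DSCC1, a subunit of an alternative clamp loader that helps establish sister chromatid cohesion, read 7.01, 6.90 and 7.0 with siYAP2, against 7.75, 7.71 and 7.78 in control arrays. MCM2, a subunit of the MCM helicase, read 9.04, 9.09 and 9.02 with siYAP2, against 9.59, 9.42 and 9.49 in control arrays. None of these groups overlapped. The log2 difference was -0.77 for E2F1 (SE 0.121, limma adjusted p = 0.00106), -0.78 for DSCC1 (SE 0.170, limma adjusted p = 0.0149) and -0.45 for MCM2 (SE 0.106, limma adjusted p = 0.0252). Leaving out 1 array ended the call of MCM2 in 5 of 19 fits, those without any of the siYAP2 arrays or without control replicate 1 or 3, with a limma adjusted p of up to 0.120. DSCC1 was lost in 4 such fits, those without siYAP2 replicate 2 or 3 or control replicate 1 or 3, with an adjusted p of up to 0.0681. The other 6 held in all 19.

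**Figure D2:**
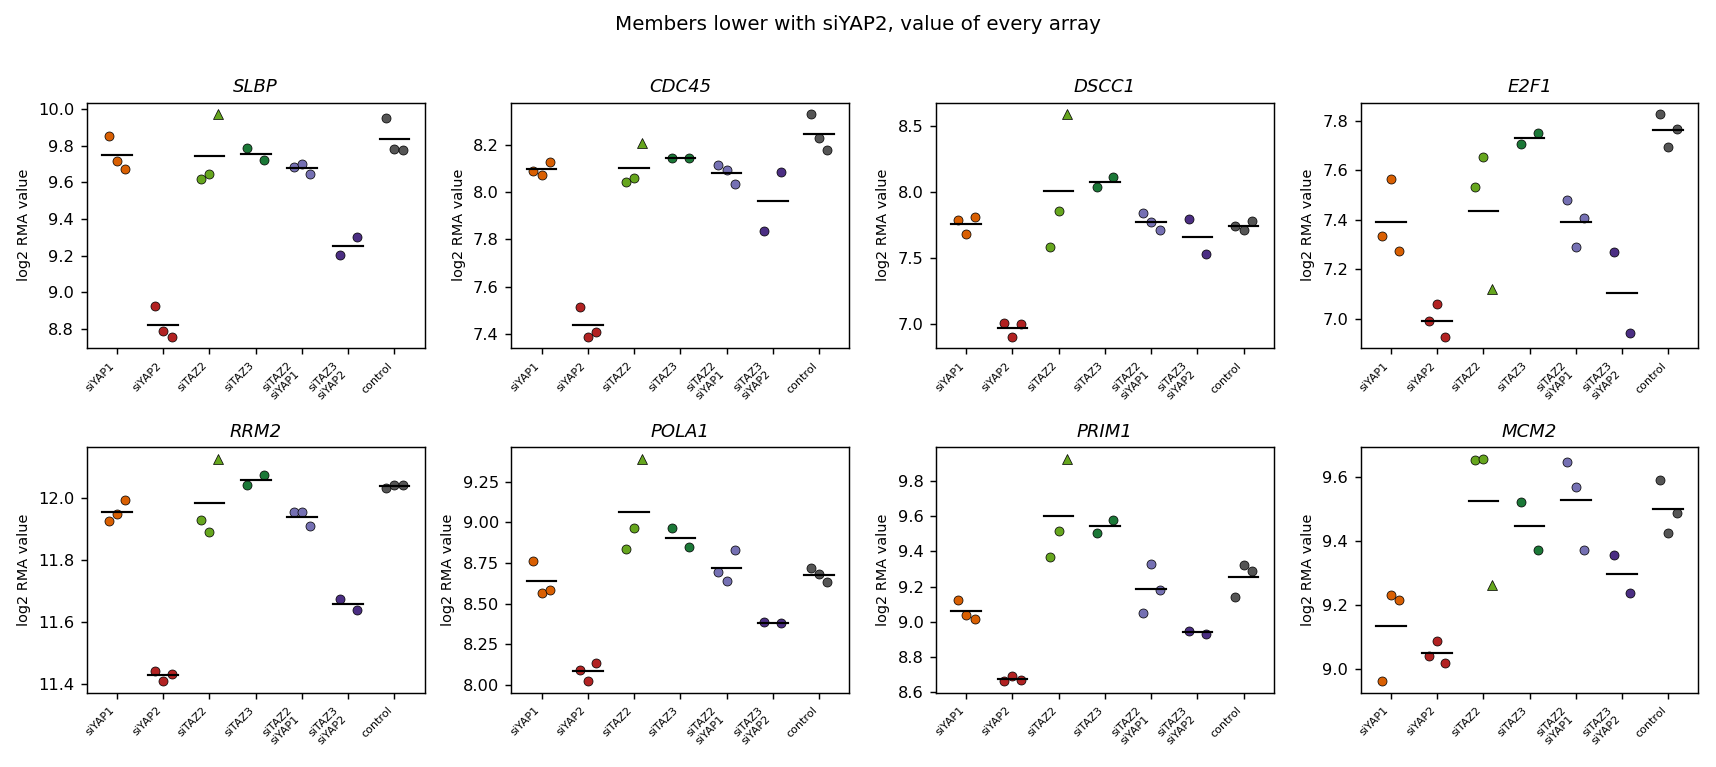
Log2 RMA value of every array (points) and group mean (bar) for the 8 genes that fell with siYAP2, by siRNA group with control at the right, with the array labelled siTAZ2 replicate 3 as a triangle. The siYAP2 points lie below all control points in each panel, for SLBP between 8.76 and 8.92 against 9.77 to 9.95 in control arrays.

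The other 36 genes did not pass with siYAP2, and most of them lay slightly below control. Over the 44 genes the median log2 difference was -0.14, against 0.01 for all genes, and 38 were below zero. In 24 every siYAP2 array was below every control array (10.6% of all genes), and in 4 every siYAP2 array was above (13.1%). The MCM ring apart from MCM2 ranged from -0.29 for MCM5 to -0.04 for MCM6. Of the licensing genes, ORC6, an origin recognition subunit, had -0.22, CDC6 -0.20, CDT1 -0.15 and ORC1 -0.02. MCM10, which helps switch the helicase on, had -0.24, and the GINS subunits lay between -0.16 for GINS3 and 0.06 for GINS1, with GINS4 at -0.03. The clamp loader genes RFC2 to RFC5 ranged from -0.21 for RFC4 to 0.12 for RFC5. The sliding clamp PCNA had 0.07, the flap nuclease FEN1 -0.14, the ligase LIG1 0.14 and the primer-removing RNASEH2A -0.06. CHAF1A and CHAF1B, which place histones on new DNA, had 0.03 and -0.18, and UHRF1, which carries DNA methylation over to new strands, had -0.18. The cyclin E genes CCNE1 and CCNE2 had -0.13 and -0.07, and E2F2 had -0.20. CDC25A, the phosphatase that activates CDK2, had -0.51, with all 3 siYAP2 arrays below control. When the array labelled siTAZ2 replicate 3 was left out, 10 of the 44 fell with siYAP2 (3.54% of all genes), with MCM10 and CDC25A added to the 8.

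With siYAP1 no single gene passed, but most of the list lay below control. The median log2 difference was -0.16 with siYAP1 (-0.14 with siYAP2, against the same control arrays), against 0.00 for all genes, 42 of 44 genes were below zero, and in 26 every siYAP1 array was below every control array, where 7.91% of all genes behaved so. None was above control in every array (9.1% of all genes). The sizes were largest for the licensing factor CDC6, which read 9.68, 9.69 and 9.77 with siYAP1, against 10.04, 10.23 and 10.12 in control arrays, a log2 difference of -0.41 (SE 0.112, limma adjusted p = 0.134). The next were E2F1 at -0.37, MCM2 at -0.36, TK1 at -0.36 and RNASEH2A at -0.33. By role, all 6 MCM genes, all 4 licensing genes, all 6 helicase activation genes and all 4 nucleotide genes were below zero, and so were 7 of the 9 genes of the clamp, its loaders and the lagging strand. The array labelled siTAZ2 replicate 3 is in neither group, but in the fit without it MCM2, CDC6, CDT1, RRM1, TK1 and E2F1 fell with siYAP1 (6 of 44, 1.15% of all genes), CDC6 with a limma adjusted p of 0.00835.

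The 2 YAP siRNAs left similar amounts of YAP1 transcript, 15.3% of control with siYAP2 and 15.1% with siYAP1, but differed on this list. Set directly against siYAP1, 5 genes were lower with siYAP2 (2.92% of all genes) and 2 were higher (1.92%). SLBP, which read 9.85, 9.71 and 9.67 with siYAP1, differed by -0.92 (SE 0.088, limma adjusted p = 5.82e-06). CDC45, at 8.09, 8.08 and 8.13 with siYAP1, differed by -0.66, RRM2, at 11.93, 11.95 and 12.0, by -0.53, and POLA1, at 8.76, 8.57 and 8.58, by -0.56. DSCC1, at 7.79, 7.68 and 7.81 with siYAP1, differed by -0.79 (SE 0.170, limma adjusted p = 0.0106). Without siYAP2 replicate 2 its adjusted p was 0.0522.

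RRM1 and PCNA differed the other way. RRM1 read 10.60, 10.69 and 10.69 with siYAP2 and 10.29, 10.20 and 10.28 with siYAP1, a log2 difference of 0.40 (SE 0.092, limma adjusted p = 0.0160). PCNA read 11.50, 11.54 and 11.51 with siYAP2 and 11.24, 11.21 and 11.29 with siYAP1, a difference of 0.27 (SE 0.051, limma adjusted p = 0.00476). In both cases control arrays lay between the groups, at 10.48 to 10.59 for RRM1 and 11.42 to 11.47 for PCNA. The call of RRM1 was lost without siYAP1 replicate 2, siYAP2 replicate 2 or siYAP2 replicate 3, with an adjusted p of up to 0.0717. The subunits of ribonucleotide reductase thus stood in opposite order, RRM1 higher and RRM2 lower with siYAP2 than with siYAP1.

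For 3 of the 8 genes that fell with siYAP2, a difference between the siRNAs was not shown. MCM2 read 8.96, 9.23 and 9.22 with siYAP1, and siYAP2 differed from it by -0.09 (95% interval -0.31 to 0.14). E2F1 read 7.33, 7.57 and 7.27 with siYAP1 and differed by -0.40 (95% interval -0.66 to -0.14, limma adjusted p = 0.0838). PRIM1 read 9.12, 9.04 and 9.01 with siYAP1 and differed by -0.38 (95% interval -0.62 to -0.15, limma adjusted p = 0.0613). Both E2F1 and PRIM1 had every siYAP2 array below every siYAP1 array. The fit without the array labelled siTAZ2 replicate 3 gave 8 lower and 3 higher (4.56% and 3.93% of all genes), E2F1, PRIM1 and CDC25A joining the lower genes and GINS1 the higher.

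The same siRNAs were also added on top of a TAZ siRNA, which gives a second set of arrays with no control array in common. When siYAP2 was added to siTAZ3, 35 of the 44 genes were below zero (46.6% of all genes), and in 23 every array of the pair was below every siTAZ3 array (16.8%). RRM2 fell and no gene of the list rose (0.512% of all genes fell and 0.0508% rose). It read 11.68 and 11.64 with siTAZ3 and siYAP2, against 12.04 and 12.08 with siTAZ3, a log2 difference of -0.40 (SE 0.069, limma adjusted p = 0.0108). With 2 arrays a group this call was lost when only these groups were fitted. It was also lost without siTAZ3 replicate 1, siTAZ3 replicate 2 or siTAZ3 with siYAP2 replicate 2, fits that leave 1 array in a group.

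All 8 genes that fell with siYAP2 alone were below zero when siYAP2 was added to siTAZ3, between -0.62 and -0.15 with a median of -0.46, and none of the 8 had overlapping groups. E2F1 read 7.27 and 6.94 with siTAZ3 and siYAP2, against 7.71 and 7.75 with siTAZ3, a difference of -0.62. PRIM1 read 8.95 and 8.93 with siTAZ3 and siYAP2, against 9.51 and 9.58 with siTAZ3, a difference of -0.60. POLA1 read 8.39 and 8.38 with siTAZ3 and siYAP2, against 8.96 and 8.85 with siTAZ3, a difference of -0.52. These 3 differences, and that of SLBP, did not pass with all arrays. SLBP read 9.21 and 9.30 with siTAZ3 and siYAP2, against 9.79 and 9.72 with siTAZ3, a difference of -0.50 (SE 0.108, limma adjusted p = 0.0535). DSCC1 had -0.42, CDC45 -0.19 and MCM2 -0.15. In the fit without the array labelled siTAZ2 replicate 3, again in neither group, RRM2, POLA1, PRIM1, DSCC1, SLBP and E2F1 fell (6 of 44, 1.18% of all genes).

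**Figure D3:**
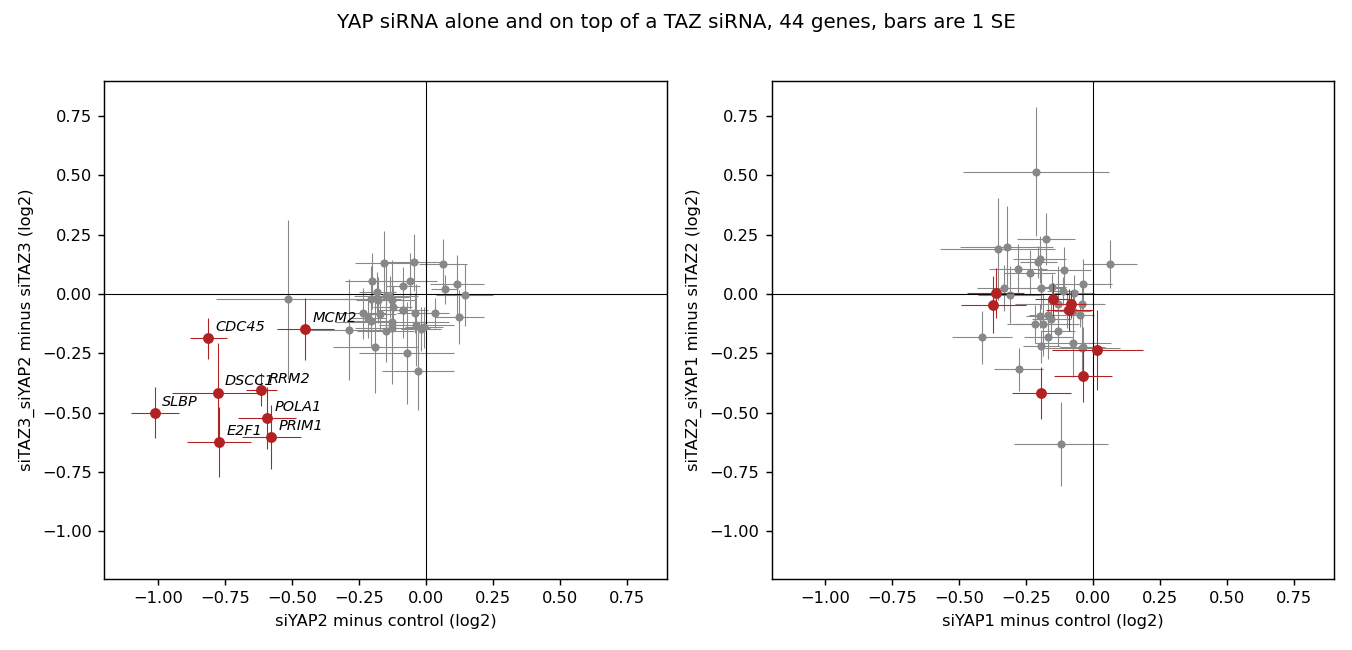
Log2 difference of each of the 44 genes when a YAP siRNA was given alone, against control (horizontal), and when it was added to a TAZ siRNA (vertical), for siYAP2 with siTAZ3 and for siYAP1 with siTAZ2, with the 8 genes that fell with siYAP2 in colour. For siYAP2 all 8 coloured points lie below zero on both axes. For siYAP1 they had a median of -0.12 alone and -0.06 on top of siTAZ2.

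CDC45 was the gene whose siYAP2 difference changed most in size. CDC45 read 7.84 and 8.09 with siTAZ3 and siYAP2, against 8.15 and 8.15 with siTAZ3. Its siYAP2 difference was -0.81 alone and -0.19 on top of siTAZ3, a test of the difference between them of 0.63 (SE 0.110, limma adjusted p = 0.0507). Its limma adjusted p was 0.0128 without the array labelled siTAZ2 replicate 3, the one gene of the 44 to pass this test in that fit (0.387% of all genes passed). Without siTAZ3 with siYAP2 replicate 1, 1 of the 44 passed as well. With all arrays none of the 44 passed it (0.0821% of all genes passed in either direction). The amount of YAP1 transcript also differed between these settings, at 15.3% of control with siYAP2 alone and 31.0% of the siTAZ3 level on top of siTAZ3, and its part in the difference was not tested.

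Adding siYAP1 to siTAZ2 changed none of the 44 by the limma test, where 0.211% of all genes were lower and 0.00782% higher. The median log2 difference was -0.04, against 0.01 for all genes, and in 10 genes every array of the pair was below every siTAZ2 array (5.81% of all genes). The largest difference was that of CCNE2, a cyclin that activates CDK2 at S phase entry, which read 6.47, 6.62 and 6.70 with siTAZ2 and siYAP1, against 6.90, 7.01 and 7.77 with siTAZ2, a difference of -0.63 (SE 0.176, limma adjusted p = 0.264). The 7.77 is from the array labelled siTAZ2 replicate 3, and leaving it out made the difference -0.36. The values with siTAZ2 and siYAP1 were the 3 lowest CCNE2 values of the 19 arrays. The test of whether siYAP1 acted differently on top of siTAZ2 passed for none of the 44 (0.109% of all genes passed). When the array labelled siTAZ2 replicate 3 was left out, it again passed for none of the 44 (0.195% of all genes passed).

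Against control, 23 of the 44 genes were above zero and 21 below with siTAZ2, and 28 were above and 16 below with siTAZ3. Of all genes, 50.1% and 50.3% were below zero. The median log2 difference from control was 0.02 with siTAZ2 and 0.05 with siTAZ3, against 0.00 for all genes in both. With siTAZ3, every array was above control for 16 of the 44 genes (36.4%, against 15.9% of all genes). Every array was below it for 7 (15.9%, against 15% of all genes). GINS1, low in all TAZ arrays, and CDC25A, low in all siTAZ3 arrays, are shown here with their sequence because the results on the TAZ siRNAs turn on them. The 150 bases before the start are written as above, with E2F-type and CCAAT letters in capitals.
GINS1, chr20:25407523-25407672, plus strand: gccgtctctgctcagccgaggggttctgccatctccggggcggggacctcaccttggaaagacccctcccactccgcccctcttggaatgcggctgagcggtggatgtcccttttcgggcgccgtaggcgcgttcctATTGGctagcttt
CDC25A, chr3:48188418-48188567, minus strand: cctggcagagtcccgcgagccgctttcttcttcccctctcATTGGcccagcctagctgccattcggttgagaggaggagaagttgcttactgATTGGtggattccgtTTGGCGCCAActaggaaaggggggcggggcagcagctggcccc
The CDC25A stretch holds 2 CCAAT boxes and 2 E2F-type matches that overlap as one run read on both strands, and the GINS1 stretch holds 1 CCAAT box. In the full window GINS1 holds 1 E2F-type match, outside the stretch shown. The TEAD-type letters occur once in the full GINS1 window and not in that of CDC25A.

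GINS1, a subunit of the complex that joins CDC45 on the active helicase, read 9.75, 9.83 and 9.46 with siTAZ2 and 9.54 and 9.72 with siTAZ3, against 10.29, 10.41 and 10.44 in control arrays. It read 9.61, 9.77 and 9.74 with siTAZ2 and siYAP1 and 9.81 and 9.69 with siTAZ3 and siYAP2. Every array with a TAZ siRNA was below every array without one, since the YAP arrays read 10.11 to 10.52. The log2 differences from the shared control arrays were -0.70 with siTAZ2 (SE 0.089, limma adjusted p = 4.76e-04), -0.75 with siTAZ3, -0.67 with siTAZ2 and siYAP1 and -0.63 with siTAZ3 and siYAP2, and all 4 passed. The arrays with a TAZ siRNA are also those of the later deposit, so siRNA and deposit cannot be told apart for GINS1. A difference between the TAZ siRNAs was not shown for GINS1 (siTAZ3 minus siTAZ2 -0.05, 95% interval -0.27 to 0.16).

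CDC25A read 7.71 and 7.87 with siTAZ3 and 7.72 and 7.82 with siTAZ3 and siYAP2, against 9.11, 9.03 and 9.16 in control arrays. It read 9.07, 9.0 and 7.50 with siTAZ2 and 9.16, 8.99 and 8.96 with siTAZ2 and siYAP1, and 8.56 to 8.98 in the YAP arrays. The 4 arrays with siTAZ3 were thus low together, and the array labelled siTAZ2 replicate 3 was the only other low one. The log2 difference from control was -1.33 with siTAZ3 and siYAP2 (SE 0.304, limma adjusted p = 0.0267) and -1.31 with siTAZ3 (SE 0.304, limma adjusted p = 0.0535). Between siTAZ3 and siTAZ2 it was -0.73 (limma adjusted p = 0.477). Once the array labelled siTAZ2 replicate 3 was left out, the siTAZ3 difference from control had a limma adjusted p of 2.03e-07, and siTAZ3 against siTAZ2 gave -1.24 with a limma p adjusted to 3.66e-07. The call for siTAZ3 with siYAP2 was lost without either of its arrays or any 1 of the control arrays, with an adjusted p of up to 0.150.

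UHRF1 fell with siTAZ2, alone and with siYAP1. UHRF1 read 8.75, 8.74 and 8.82 with siTAZ2 and 8.98, 8.91 and 8.83 with siTAZ2 and siYAP1, against 9.26, 9.21 and 9.31 in control arrays. With siTAZ3 it read 9.22 and 9.15, overlapping control. UHRF1 fell by 0.49 with siTAZ2 (SE 0.069, limma adjusted p = 0.00115) and by 0.35 with siTAZ2 and siYAP1 (SE 0.069, limma adjusted p = 0.0107). The siTAZ3 arrays were higher than siTAZ2 arrays by 0.41 (SE 0.077, limma adjusted p = 0.0179), the one gene of the 44 to pass between the TAZ siRNAs (0.379% of all genes were higher and 0.434% lower). That call was lost when only the TAZ siRNA arrays were fitted and with a replicate block. It was also lost without siTAZ2 replicate 1, siTAZ2 replicate 2 or either siTAZ3 array. Leaving out a siTAZ3 array leaves 1 array in that group. For siTAZ2 with siYAP1 the call was lost without replicate 3 of that pair or control replicate 3, with an adjusted p of up to 0.0633.

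GINS2, a further GINS subunit, read 9.13, 9.29 and 8.93 with siTAZ2, against 9.54, 9.62 and 9.50 in control arrays, a log2 difference of -0.44 (SE 0.095, limma adjusted p = 0.0218). It read 9.56 and 9.59 with siTAZ3, and siTAZ3 minus siTAZ2 was 0.46 (limma adjusted p = 0.0615), so a difference between the TAZ siRNAs was not shown. With siTAZ2 and siYAP1 the difference from control was -0.35 (limma adjusted p = 0.0721). The siTAZ2 call was lost without any 1 of the control arrays, with an adjusted p of up to 0.0995. CHAF1A, the large subunit of the histone chaperone CAF-1, was the one gene of the list to rise against control. It read 8.62, 8.55 and 8.59 with siTAZ2 and 8.53, 8.53 and 8.44 with siTAZ2 and siYAP1, against 8.28, 8.30 and 8.30 in control arrays. The log2 differences were 0.29 with siTAZ2 (SE 0.051, limma adjusted p = 0.00622) and 0.20 with siTAZ2 and siYAP1 (SE 0.051, limma adjusted p = 0.0497). The value for the pair was at the threshold and was lost in 16 of 19 fits that left out 1 array, with an adjusted p of up to 0.187. It held only without siYAP1 replicate 2 or 3 or the array labelled siTAZ2 replicate 3, and it was also lost in 5 of the 6 other settings, all but array weights. Every array with a TAZ siRNA was above every control array for CHAF1A, and here too siRNA and deposit cannot be told apart. When only siTAZ2 and control arrays were fitted, which leaves fewer arrays, none of the 44 passed, GINS1 included.

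Without the array labelled siTAZ2 replicate 3, siTAZ2 gave 4 lower and 1 higher (2.6% and 2.5% of all genes), with POLE2 joining GINS1, GINS2 and UHRF1. Then siTAZ3 gave 4 lower and 2 higher (1.9% and 1.65%), which were GINS1, GINS3, RFC5 and CDC25A lower and POLA2 and CHAF1A higher. RFC5, a clamp loader subunit, read 8.51 and 8.52 with siTAZ3, against 8.72, 8.88 and 8.86 in control arrays, a difference of -0.31 that had a limma adjusted p of 0.335 over all arrays and of 0.0121 in this fit. Between siTAZ3 and siTAZ2 the counts became 2 lower and 1 higher (2.15% and 2.16%), RFC5 and CDC25A lower and UHRF1 higher.

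**Figure D4:**
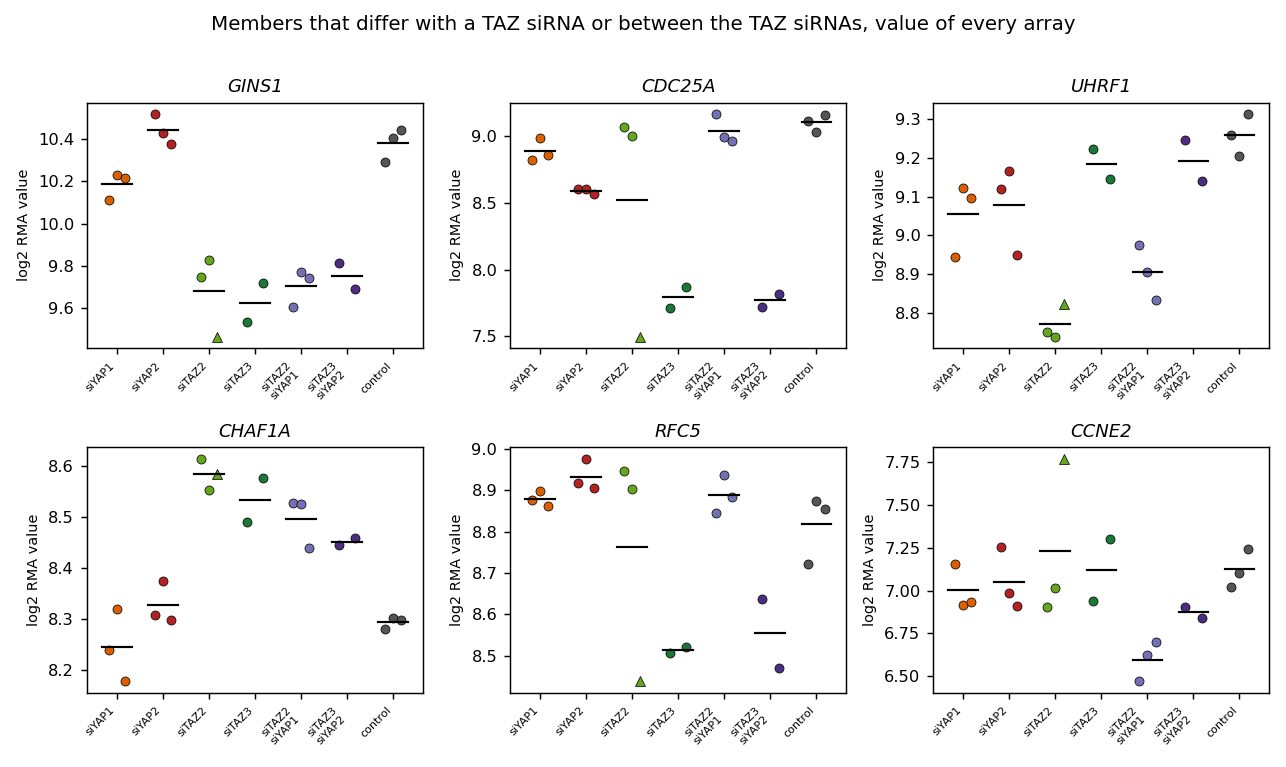
Log2 RMA value of every array (points) and group mean (bar) for 6 genes that differed with a TAZ siRNA or between the TAZ siRNAs, with the array labelled siTAZ2 replicate 3 as a triangle and control at the right. GINS1 lies at 9.46 to 9.83 in all arrays with a TAZ siRNA and at 10.11 or more elsewhere, and CDC25A is low in both groups with siTAZ3 and in the triangle.

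With siTAZ3 and siYAP2, the log2 difference from control was -0.38 for RRM2, -0.58 for SLBP and -0.66 for E2F1, which fell beside GINS1 and CDC25A. E2F1 was lost without siTAZ3 with siYAP2 replicate 2 or without control replicate 1, with a limma adjusted p of up to 0.240. With the array labelled siTAZ2 replicate 3 left out, 10 of the 44 fell (3.01% of all genes), which added CDC45, POLA1, PRIM1, POLE2 and RFC5. For siTAZ2 with siYAP1 the counts without that array were 5 lower and 1 higher (3.15% and 2.89%), with GINS2, CCNE2 and E2F1 added to the lower genes.

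The pairs of siRNAs differed from each other in 3 of the 44 genes, all lower with siTAZ3 and siYAP2 than with siTAZ2 and siYAP1 (1.51% of all genes were lower and 0.977% higher). SLBP read 9.21 and 9.30 with siTAZ3 and siYAP2, against 9.69, 9.70 and 9.64 with siTAZ2 and siYAP1, a log2 difference of -0.42 (SE 0.098, limma adjusted p = 0.0316). RRM2 read 11.68 and 11.64 with siTAZ3 and siYAP2, against 11.96, 11.96 and 11.91 with siTAZ2 and siYAP1, a difference of -0.28 (SE 0.063, limma adjusted p = 0.0247). CDC25A, whose values are given above, differed by -1.27 (SE 0.304, limma adjusted p = 0.0370). The groups did not overlap for these 3 genes. The calls of SLBP and RRM2 were lost without any 1 of the 5 arrays compared (adjusted p of up to 0.235 and 0.194), and that of CDC25A in 15 of 19 fits that left out 1 array (adjusted p of up to 0.205). The CDC25A call held without siYAP1 replicate 1 and without each siTAZ2 array in turn. RRM2 was also lost without the dimmest 30% of genes, with only these groups and with a replicate block. The counts without the array labelled siTAZ2 replicate 3 were 6 lower and 1 higher (3.01% and 2.87%).

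Other genes of the same pathway were read from a list of 69 regulators and fork factors outside the 44, of which 67 were measured. With siYAP2, 12 of the 67 fell and 2 rose (2.19% and 1.53% of all genes). The largest declines were those of DCK, a kinase that salvages deoxynucleosides, and E2F5, an E2F factor that works mostly with the pocket proteins as a repressor. DCK read 6.52, 6.41 and 6.55 with siYAP2, against 8.51, 8.66 and 8.64 in control arrays, a log2 difference of -2.11 (SE 0.169, limma adjusted p = 1.13e-06). E2F5 read 5.92, 5.98 and 5.74 with siYAP2, against 7.82, 7.79 and 7.96 in control arrays, a difference of -1.97 (SE 0.104, limma adjusted p = 1.22e-08). The groups were far apart for both. EXO1, a DNA end-resecting nuclease, fell by 0.78, RPA2, a subunit of the single-strand binding protein, by 0.66, and E2F3 by 0.61. DTYMK, which makes dTDP, fell by 0.45, POLE3, a small subunit of polymerase epsilon, by 0.45, TFDP2, an E2F partner, by 0.37 and E2F7 by 0.36. SAMHD1, which breaks down deoxynucleotides, rose by 0.32 and the histone chaperone gene ASF1A by 0.28. The other genes that fell were DTL, MYC and CDK6.

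Of the 67 genes, 9 were lower and 2 higher with siYAP2 than with siYAP1 (2.92% and 1.92% of all genes). The higher genes were CCND3, a D-type cyclin, by 0.50 and POLD3, a subunit of polymerase delta, by 0.43. DCK, at 8.71, 8.23 and 8.48 with siYAP1, differed by -1.98 and E2F5, at 7.62, 7.56 and 7.62, by -1.72. When siYAP2 was added to siTAZ3, 4 of the 67 fell (0.512% of all genes) and these again included DCK by 1.71 and E2F5 by 1.39, with EXO1 by 0.64 and TFDP2 by 0.48. When siYAP1 was added to siTAZ2 none passed (0.211% of all genes lower and 0.00782% higher). With siYAP1 alone 2 of 67 fell (0.485% of all genes), CDK6 by 0.40 and the CDK inhibitor CDKN1B by 0.32. Without the array labelled siTAZ2 replicate 3 the siYAP1 counts were 5 lower and 2 higher (1.15% and 1.32% of all genes), and CDKN1A, the p21 inhibitor gene, rose by 0.53 and RB1, the retinoblastoma gene, by 0.36.

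In the TAZ groups CDK2, the partner kinase of cyclin E, was low in the same groups as UHRF1. It read 9.59, 9.55 and 9.46 with siTAZ2 and 9.72, 9.81 and 9.65 with siTAZ2 and siYAP1, but 10.12 and 10.13 with siTAZ3, against 10.12, 10.09 and 10.04 in control arrays. CDK2 fell by 0.55 with siTAZ2 (SE 0.055, limma adjusted p = 5.03e-05) and was higher with siTAZ3 than with siTAZ2 by 0.59 (SE 0.062, limma adjusted p = 6.20e-04). In the wider list siTAZ2 gave 3 lower and 4 higher genes against control (1.04% and 1.33% of all genes) and siTAZ3 2 lower and none higher (0.645% and 0.512%). Both combined groups gave 6 lower and 2 higher, where 1.32% and 1.12% of all genes passed with siTAZ2 and siYAP1 and 1.57% and 1.09% with siTAZ3 and siYAP2. RBL2, a pocket protein, fell by 1.26 with siTAZ2 and siYAP1. With siTAZ2 alone it read 7.52, 7.44 and 8.71, the last from the array labelled siTAZ2 replicate 3, against 8.65, 8.83 and 8.67 in control arrays. MCM9, an MCM relative with a role in repair, fell by 0.63 with siTAZ3 and by 0.93 with siTAZ3 and siYAP2.

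**Figure D5:**
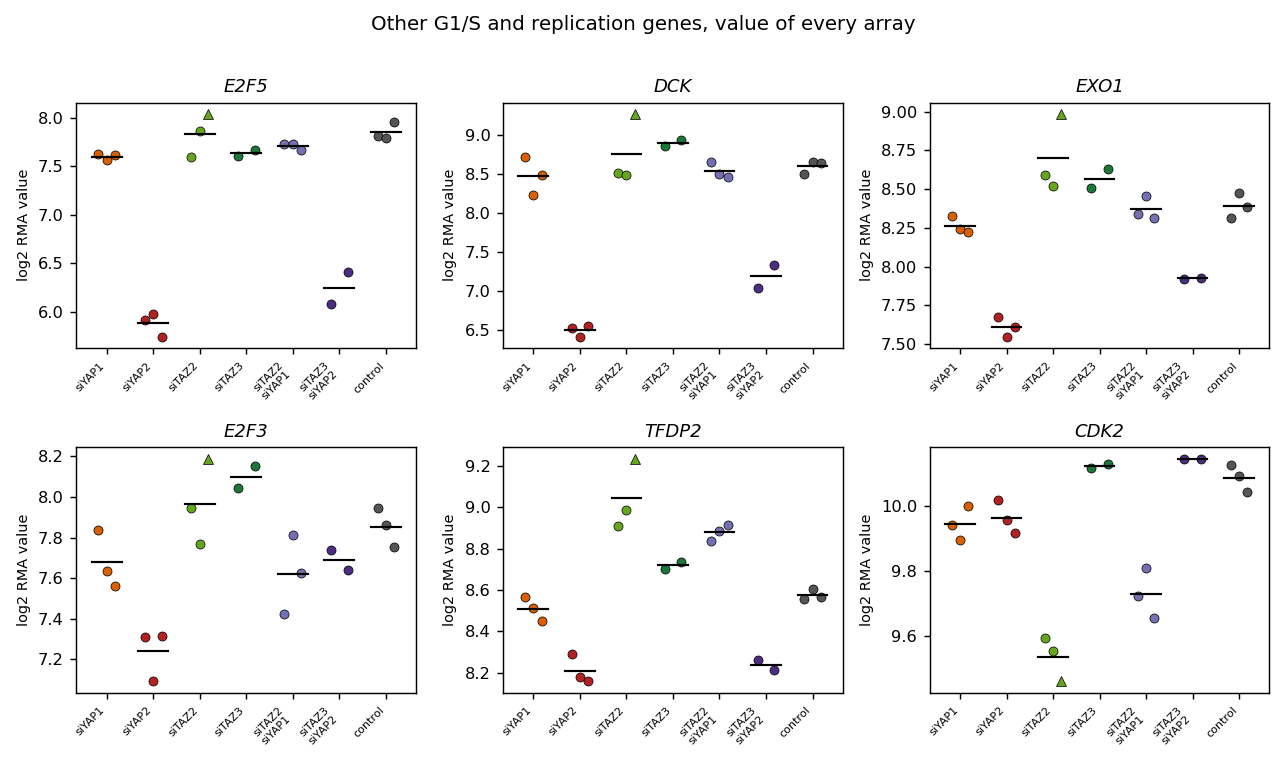
Log2 RMA value of every array (points) and group mean (bar) for 6 further G1/S and replication genes, with the array labelled siTAZ2 replicate 3 as a triangle and control at the right. E2F5 and DCK are low in both groups with siYAP2, and CDK2 is low in both groups with siTAZ2.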

How the data were processed

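Expression was measured on 19 Affymetrix arrays of HepG2 cells in 7 groups. The deposited values are log2 signals with 1 probe set per Entrez gene. Per the submitters' processing notes they come from RMA, whose version is not given in the sources used here. The sorted values are identical in all arrays. Of 25582 probe sets, 24244 had 1 gene symbol and 1338 none. For 3 symbols with 2 probe sets the one with the higher mean was kept, which left 25579 genes. Groups follow the sample titles.

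Each gene was fitted with limma 3.58.1 (R 4.3.3), with 1 mean per group over all 19 arrays and moderated errors, and p-values were adjusted by Benjamini-Hochberg over all genes for each of 13 comparisons. The procedure was tested on simulated data. The 44 genes, the 69 further genes and the tests were chosen with earlier results of these data known. Every one of the 44 that passed is given with its values, with the largest and smallest siYAP2 change of each role. Of the 69, up to 10 per comparison that passed are named by size, and a few others were named after their values were seen. Alternatives were an intensity trend, omission of the dimmest 30% of genes, array weights, cyclic loess, only the groups compared, a replicate block and omission of each array. The number of arrays limits the precision.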

Additional observations from a re-analysis of the deposited data

Results flagged for a closer look

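Results are listed here because 2 siRNAs against the same target, or 2 pairs of them, differed in their effect by a test of the difference itself. Between siYAP2 and siYAP1 the log2 difference was -0.92 for SLBP, -0.79 for DSCC1, -0.66 for CDC45, -0.56 for POLA1, -0.53 for RRM2, 0.40 for RRM1 and 0.27 for PCNA, where a negative value means lower with siYAP2. Between siTAZ3 and siTAZ2 it was 0.41 for UHRF1, higher with siTAZ3. Between siTAZ3 with siYAP2 and siTAZ2 with siYAP1 it was -1.27 for CDC25A, -0.42 for SLBP and -0.28 for RRM2, lower with siTAZ3 and siYAP2. These calls are not equally firm. Each call between the pairs, and those of UHRF1, DSCC1 and RRM1, was lost in some fits that left out 1 array. Between the YAP siRNAs those of SLBP, CDC45, POLA1, RRM2 and PCNA held in all such fits. Groups of 2 or 3 arrays are too small for the test of a single array far from its group.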

How the results depend on the processing

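Counts below are of the 44 genes called in either direction. No called gene changed sign under any alternative run. With array weights the counts were 4 for siYAP1, 13 for siYAP2, 9 for siTAZ2, 6 for siTAZ3 and 6 for siTAZ2 with siYAP1, each against control, 5 for siTAZ3 against siTAZ2, 5 for siYAP2 added to siTAZ3 and 1 for the test of whether siYAP2 acted differently on top of siTAZ3. For siTAZ3 against control the count was 2 with an intensity trend, without the dimmest 30% of genes, and with only the groups compared. With only the groups compared it was 0 for siTAZ2 and 5 for siTAZ2 with siYAP1 against control, 0 for siTAZ3 against siTAZ2 and 0 for siYAP2 added to siTAZ3. With cyclic loess it was 2 for siYAP2 added to siTAZ3 and 1 for the test of that effect against siYAP2 alone. The estimate of the array weights stopped before reaching its convergence tolerance, which limits these counts. The count over all genes rose to 2374 for siYAP2 and 556 for siYAP1 with them, against 952 and 225 with all arrays weighted alike. For siTAZ2, siTAZ3 and siTAZ2 with siYAP1 against control it rose to 2382, 1053 and 1943, against 606, 296 and 624. It rose to 1553 for siTAZ3 against siTAZ2, against 208, and to 228 for siYAP2 added to siTAZ3, against 144. For the test of siYAP2 on top of siTAZ3 it rose to 72, against 21. Counts over all genes in the other settings are not given here, so those counts of the 44 cannot be called high or low. In each case the cause was not tested, and a fit of only the groups compared has fewer arrays.

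Whether the replicate numbers pair the arrays was not settled. Deviations from the group mean were correlated between same-numbered arrays at -0.11 to 0.12 among control and YAP arrays. Among TAZ and combined arrays the range was -0.28 to 0.23. For different numbers the ranges were -0.15 to 0.17 and -0.23 to 0.28. In a group of 2 arrays the deviations mirror each other, so the -0.28 and the 0.28 are the same value with its sign turned. With the replicate block the counts were 2 for siTAZ3 against control, 0 for siTAZ3 against siTAZ2 and 3 for siYAP2 added to siTAZ3.

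Leaving out each array in turn gave counts against control of 0 to 6 for siYAP1, 6 to 10 for siYAP2, 3 to 8 for siTAZ2, 1 to 6 for siTAZ3, 1 to 6 for siTAZ2 with siYAP1 and 3 to 10 for siTAZ3 with siYAP2. The counts were 5 to 11 for siYAP2 against siYAP1, 0 to 3 for siTAZ3 against siTAZ2, 0 to 1 for siYAP1 added to siTAZ2, 0 to 6 for siYAP2 added to siTAZ3 and 0 to 7 between the pairs. The test of siYAP1 on top of siTAZ2 against siYAP1 alone gave 0 to 0, and that of siYAP2 on top of siTAZ3 gave 0 to 1. The highest counts came without the array labelled siTAZ2 replicate 3, except those for siTAZ2 against control (8) and siYAP1 added to siTAZ2 (1), which came without siTAZ2 replicate 1. The counts over all genes moved too, between 126 and 632 for siYAP1 and between 612 and 1810 for siYAP2 against control. They moved between 273 and 1305 for siTAZ2 and between 314 and 1547 for siTAZ2 with siYAP1 against control. For siYAP2 against siYAP1 they moved between 812 and 2171, and for siYAP1 added to siTAZ2 between 26 and 99. Those of the other comparisons are not given here. Precision is limited by 2 or 3 arrays a group.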
